A study of Mus musculus with 4 samples.

Results

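The keratin genes are described here in sorted cells of the mouse fetal gonad. All genes whose symbol is Krt followed by digits alone were taken, which gave 46 of the 20299 genes listed, each present in all 4 libraries. Keratin-associated proteins, and 4 keratins whose symbols end in a letter, fall outside that rule. Textbook knowledge was used to place the 46 genes in 5 classes: 5 simple epithelial keratins, 18 stratified epithelial keratins, 7 keratins of the hair follicle sheath, 13 keratins of the hair shaft and 3 others.

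Keratins are the intermediate filament proteins of epithelial cells, and a filament needs 1 partner of type I and 1 of type II. Simple epithelia, which are a single cell layer thick, use Krt8 with Krt18, often joined by Krt7, Krt19 or Krt20. Layered epithelia such as the epidermis use keratins such as Krt5 with Krt14 in basal cells and Krt1 with Krt10 above them, and hair follicles use further pairs in the sheath and the shaft. In the fetal gonad, simple keratins are known from the surface epithelium and from the supporting cells, whereas hair keratins are known chiefly from hair, nail and tongue.

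The samples were strand-specific, ribosomal-RNA-depleted, paired-end RNA-seq libraries of total RNA at 15.5 dpc (days post coitum). Gonads came from fetuses of CF1 females mated with TgOG2 males, so all 4 groups carry an EGFP transgene driven by the Oct4 promoter. The groups were male germ cells and female germ cells, sorted as GFP-positive, and male somatic cells and female somatic cells, sorted as GFP-negative, with 1 library each. A GFP-negative sort keeps every gonadal cell without the reporter, blood and vessel cells included, and Pou5f1, the mouse gene for Oct4, was at 497 in the male and 34.5 in the female germ library in the unit defined below. The labels do not say how many animals gave each library.

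Values are in SPM, the deposited signal per 1000000 of each library's scaled total. Of low values, 40.8% to 52.1% in a library fell on multiples of 1 smallest step, against 16% to 24% of whole numbers. Many values lie off the step and some under it. That step was nonetheless read as 1 sequenced fragment, on which the floor and intervals below rest. This put the depth at 17500000 to 24900000 fragments a library. A floor of 3 fragments in the shallowest library, 0.18 SPM, was applied to all 4 for detection. Germ cell markers summed to 3480 and 2715 SPM in the male and female germ libraries and to 29.4 and 13.8 SPM in the somatic ones. Markers of other cells in a germ library, as a percentage of the somatic library of the same sex (male, then female), came to 5.34 and 3.37 for Sertoli cells, 23.0 and 2.87 for pregranulosa cells, and 7.80 and 12.7 for fetal Leydig cells. They came to 1.29 and 0.9996 for stroma, 3.82 and 3.01 for surface epithelium, 31.0 and 11.3 for endothelium, and 1.17 and 0.677 for red cells.

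The start regions of 6 keratins show how the members that carried the results differ in sequence. The 250 bases before the start site are printed from RefSeq on GRCm38.p6, 5′ to 3′ on the gene's strand, with each CG dinucleotide in capitals. Krt8 (chr15:102004343-102004592, minus strand), Krt18 (chr15:102027966-102028215, plus strand) and Krt7 (chr15:101412153-101412402, plus strand) were the strong simple keratins of the somatic libraries with an entry in the table. Krt27 (chr11:99351119-99351368, minus strand), Krt23 (chr11:99493121-99493370, minus strand) and Krt42 (chr11:100269952-100270201, minus strand) had their signal mainly in the male germ library.
Krt8: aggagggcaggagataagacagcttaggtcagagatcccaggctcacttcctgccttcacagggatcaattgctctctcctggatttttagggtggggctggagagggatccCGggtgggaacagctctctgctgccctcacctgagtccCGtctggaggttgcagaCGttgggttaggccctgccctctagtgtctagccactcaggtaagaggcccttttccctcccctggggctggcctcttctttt
Krt18: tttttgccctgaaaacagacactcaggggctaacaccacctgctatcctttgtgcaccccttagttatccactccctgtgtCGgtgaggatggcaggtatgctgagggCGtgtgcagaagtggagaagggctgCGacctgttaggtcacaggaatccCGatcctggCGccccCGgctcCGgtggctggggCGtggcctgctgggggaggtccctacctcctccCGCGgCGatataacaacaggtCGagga
Krt7: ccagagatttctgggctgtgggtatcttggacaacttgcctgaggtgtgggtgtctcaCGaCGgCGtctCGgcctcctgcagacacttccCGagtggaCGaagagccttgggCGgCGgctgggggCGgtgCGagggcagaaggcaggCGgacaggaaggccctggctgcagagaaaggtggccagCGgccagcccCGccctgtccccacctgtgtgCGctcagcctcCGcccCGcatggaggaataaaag
Krt27: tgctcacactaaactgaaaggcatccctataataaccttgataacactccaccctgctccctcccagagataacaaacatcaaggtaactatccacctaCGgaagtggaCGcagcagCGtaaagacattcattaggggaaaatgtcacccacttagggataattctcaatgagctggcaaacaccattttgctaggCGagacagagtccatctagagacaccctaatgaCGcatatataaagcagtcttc
Krt23: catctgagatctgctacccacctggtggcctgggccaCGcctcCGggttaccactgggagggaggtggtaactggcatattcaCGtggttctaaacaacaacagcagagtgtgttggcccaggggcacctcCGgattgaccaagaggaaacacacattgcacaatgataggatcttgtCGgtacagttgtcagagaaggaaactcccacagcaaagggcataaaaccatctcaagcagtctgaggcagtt
Krt42: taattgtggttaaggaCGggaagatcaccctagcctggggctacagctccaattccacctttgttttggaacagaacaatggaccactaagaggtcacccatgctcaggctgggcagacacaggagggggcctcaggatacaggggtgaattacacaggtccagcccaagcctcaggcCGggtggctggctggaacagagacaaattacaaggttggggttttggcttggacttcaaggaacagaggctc

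These 6 stretches hold 3 CG in Krt8, 12 in Krt18, 16 in Krt7, 5 in Krt27, 5 in Krt23 and 2 in Krt42. The table held windows of 300 bases, from 250 before to 50 after the start, for 33 of the 46 members, 34 windows in all. Their median was 5 CG, against 7 over all 32851 windows of the table. The letters TATAAA, searched on both strands, were in 17 of the 34 windows (50%), against 13.6% of all windows. By class, TATAAA was in 6 of 7 windows of the follicle sheath keratins and 5 of 8 of the hair shaft keratins, but in 4 of 14 of the stratified and 2 of 4 of the simple keratins. The GC-box letters GGGCGG, on both strands and not overlapping TATAAA, were in 2 of the 34 windows, those of Krt7 and Krt75, or 5.88% against 35.7%. A match is a description of the letters, not of a factor's binding.

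**Figure D1:**
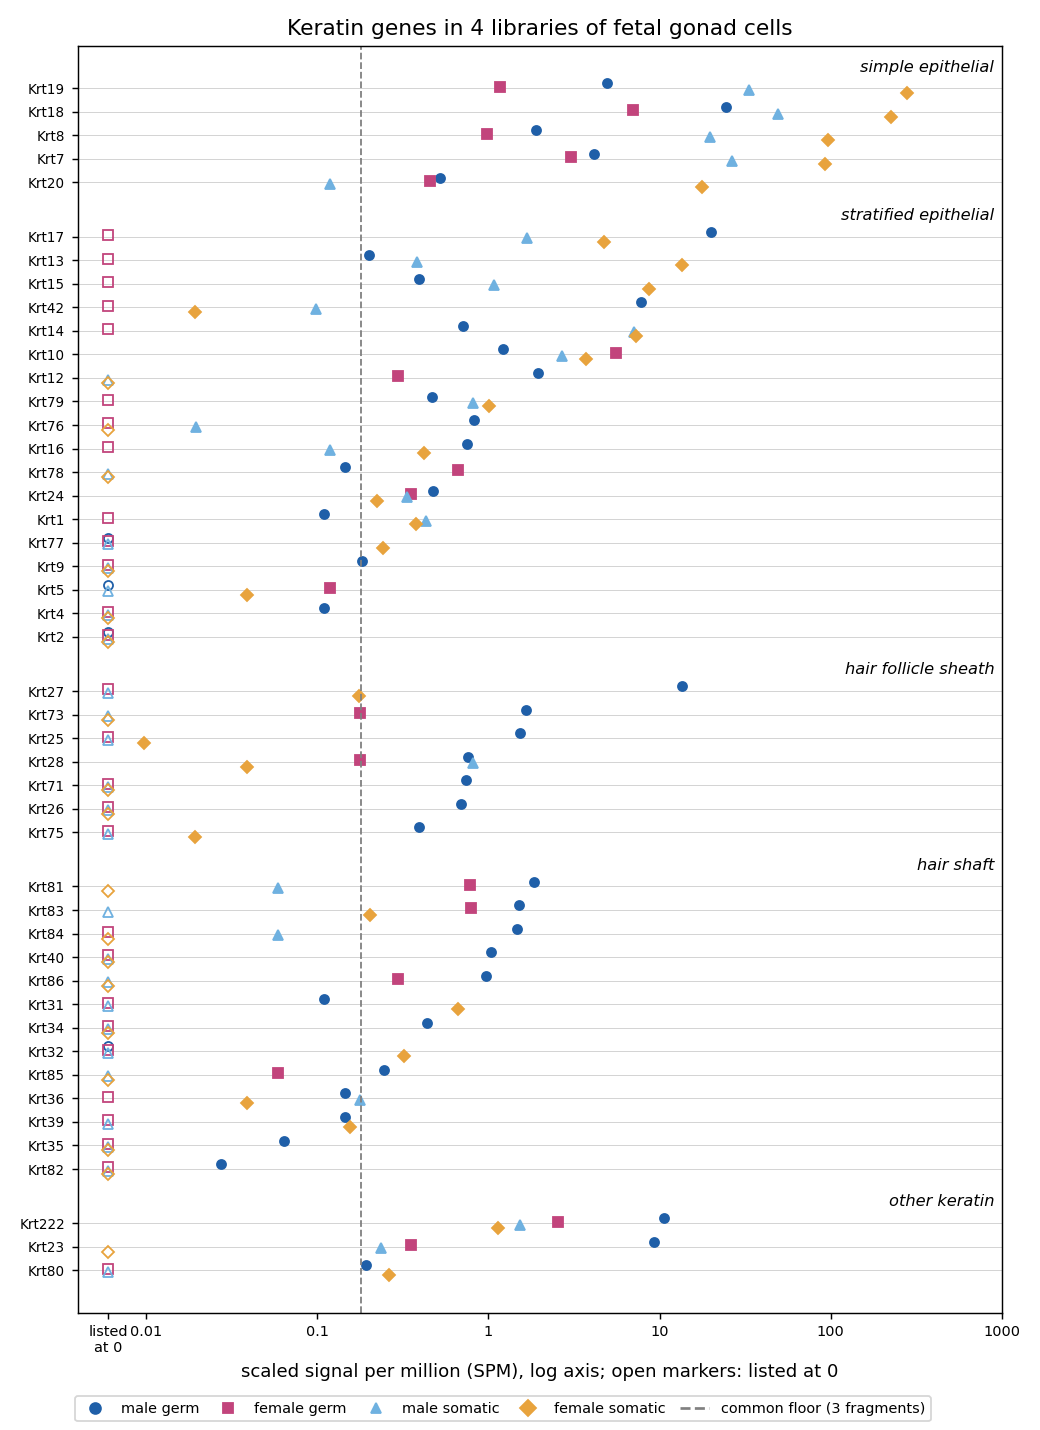
Signal of each of the 46 keratins in the 4 libraries, in SPM on a log axis. Open markers are values listed at 0, and the dashed line is the floor of 3 fragments (0.18 SPM). Simple keratins lie to the right in the female somatic library, while many follicle sheath and shaft keratins are above the floor in the male germ library and not in the others.

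In the somatic libraries the keratin signal was that of a simple epithelium. The 46 genes summed to 147 SPM in male and 753 SPM in female somatic cells, of which simple keratins held 88.0% and 94.3%. Germ cells had less keratin signal, 119 SPM in males and 24.9 SPM in females, and simple keratins held 30.4% and 50.9% of it. In bulk libraries, fewer cells of a type and less RNA per cell cannot be told apart.

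Krt19, a type I keratin of simple epithelia, stood at 279 SPM in female somatic, 33.3 in male somatic, 4.93 in male germ and 1.16 in female germ cells. Krt18, the type I partner of Krt8, stood at 225 SPM in female somatic, 49.4 in male somatic, 24.6 in male germ and 7.01 in female germ cells. Both genes kept the same order of the 4 libraries, with no overlap of somatic and germ values. Krt8, the type II partner, was at 96.1, 19.7, 1.91 and 0.986 SPM in the same order. Krt7, a type II keratin of glandular and ductal epithelia, was at 92.4, 26.4, 4.15 and 3.06 SPM. Female somatic cells were the highest library for all 4 genes and female germ cells the lowest. Krt20, known from intestinal and urothelial cells, stood at 17.8 SPM in female somatic cells and at 0.118, 0.521 and 0.453 SPM in male somatic, male germ and female germ cells.

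Compared per length of gene, Krt19 led in female somatic cells with 202 SPM per kb, followed by Krt18 with 160, Krt7 with 57.9 and Krt8 with 53.0. In male somatic cells Krt18 led with 35.1 SPM per kb, followed by Krt19 with 24.2, Krt7 with 16.6 and Krt8 with 10.9. The level of Krt18 over that of Krt8, on the same scale, was 3.01 in female somatic and 3.24 in male somatic cells, but 16.6 in male germ and 9.17 in female germ cells. In germ cells, then, Krt18 was far above its partner. Of the 100-base stretches of the Krt8 transcript, 16.9% also occur in another gene, mostly in the pseudogene Krt8-ps, while Krt7, Krt18 and Krt19 shared none; reads from such stretches may be placed on either gene, and the sources used here do not give how the deposited counting treated them.

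Germ and somatic cells were compared with limma for the 9 keratins that reached 1 SPM in 2 or more libraries; each cell type then has 2 samples, 1 of each sex. None passed an adjusted p of 0.05 in either direction, against 2.5% of all 14148 genes tested that were higher and 5.56% that were lower in germ cells. At an unadjusted p under 0.05, 5 of the 9 were lower, against 18.7% of all genes, and 0 were higher. Krt8 had a log2 ratio of germ over somatic of -4.54 ± 0.97 (SE, n = 2 per group; limma, adjusted p = 0.0543). For Krt19 it was -5.02 ± 1.22 (adjusted p = 0.0673, limma). For Krt18 it was -2.95 ± 0.98 (adjusted p = 0.116, limma). Krt7 (-3.62, adjusted p = 0.0587 by limma) and Krt14 (-3.31, adjusted p = 0.0565 by limma) had similar ratios.

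In 6 of the 9, Krt7, Krt8, Krt14, Krt15, Krt18 and Krt19, both germ libraries lay under both somatic ones, against 33.8% of all genes, and Krt222 was the 1 with both germ libraries higher, against 28.5%. The median log2 ratio of the 9 was -2.95, against -0.11 over all genes tested. Krt14 and Krt15 met the filter through the somatic libraries alone. The filter left out members at 1 SPM in 1 library, such as Krt23, Krt27 and Krt42 in male germ cells and Krt13 and Krt20 in female somatic cells. The counts among the 9 and their median are thus partly set by the filter. With sex as a term in the limma fit, which sets the germ library of each sex against the somatic library of that sex, 6 of the 9 passed as lower in germ cells (those same genes), against 13.8% of all genes. That fit leaves 1 residual degree of freedom per gene, beside 25.7 from the variance that limma borrows from all genes. Without the term these are 2 and 3.15. Without the male germ library 2 of 9 passed, Krt8 and Krt14, against 19.1% of all genes, and without the male somatic library 2 of 7, Krt8 and Krt19, against 1.29%. Over the 4 fits that each left out 1 library, the log2 ratio ran from -5.68 to -3.41 for Krt8, from -6.54 to -3.49 for Krt19 and from -4.04 to -1.86 for Krt18. These p-values reflect no more than the spread among the 4 libraries, partly that of all genes and not of the gene alone. The labels do not say that those libraries come from separate animals or litters.

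**Figure D2:**
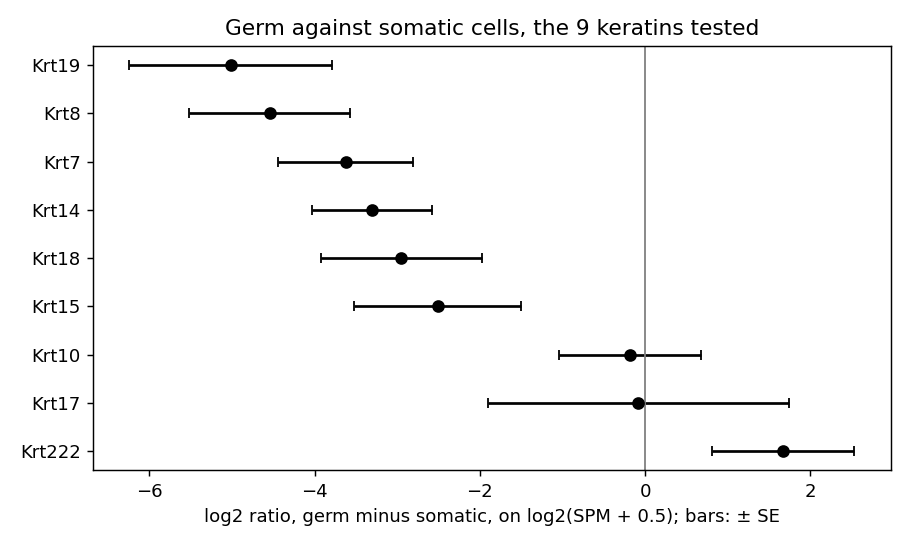
Log2 ratio of germ over somatic signal for the 9 keratins tested, on log2(SPM + 0.5), with points for the estimate and bars of 1 SE from limma over 2 germ and 2 somatic libraries. The bars of 6 genes lie to the left of 0, those of Krt10 and Krt17 span it, and Krt222 lies to the right.

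Between the somatic libraries, female cells had the higher keratin signal. With 1 library per sex there is no test, and ratios are given with exact binomial 95% intervals that cover counting error only. At 4-fold or more with 1 SPM or more in the higher library, 6 of 12 keratins were higher in female somatic cells, against 4.32% of all genes, and 0 of 12 in male somatic cells, against 4.28%. The 6 were Krt8, Krt13, Krt15, Krt18, Krt19 and Krt20. All 12 reached 1 SPM in female somatic cells and 9 did in male somatic cells. The others were admitted through the female library alone, which partly sets the count. The female over male ratio was 8.37 for Krt19 (95% interval 7.67 to 9.14), 4.54 for Krt18 (4.22 to 4.90), 4.88 for Krt8 (4.35 to 5.50) and 3.49 for Krt7 (3.15 to 3.88). Krt20 was 150 times higher in the female library (40.7 to 1224), on 2 fragments in the male one.

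Markers of several cell types also differed between these libraries. Surface epithelium markers summed to 433 SPM in female and 305 SPM in male somatic cells, and Upk3b, a surface mesothelial marker, stood at 206 and 67.6 SPM. Without Upk3b the list summed to 227 SPM in female and 238 SPM in male cells, with Lhx9, its highest other gene, at 157 and 168 SPM. Pregranulosa markers summed to 1183 and 116 SPM, with Fst at 704 and 7.43 SPM. Sertoli markers ran the other way, 1145 and 1747 SPM. Clu, Gata4 and Wt1 gave most of the female sum, at 461, 277 and 367 SPM, against 679, 221 and 108 SPM in males. Amh, Dhh, Cst9 and Ptgds were at 0.379, 0.253, 1.54 and 1.58 SPM in female and 273, 96.9, 182 and 84.7 SPM in male cells. Markers of mesonephric ducts and tubules summed to 84.9 and 13.5 SPM, of which Emx2, also a gonad gene, gave 65.5 and 9.77 SPM. Ret (9.13 and 1.41 SPM), Pax8 (8.04 and 1.75 SPM) and Gata3 (2.02 and 0.217 SPM) were higher in the female library too, while the duct genes Pax2, Lhx1 and Wnt9b were under the floor in both. Stroma markers summed to 6025 SPM in female and 16223 SPM in male, fetal Leydig markers to 90.5 and 805 SPM, and red cell markers to 7694 and 16369 SPM. What part these cells had in the keratin difference was not tested.

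Keratins of layered epithelia summed to less signal than simple keratins, in male germ cells only slightly (35.3 against 36.1 SPM). They split into somatic and germ patterns. Krt13, known from mucosal linings, stood at 13.5 SPM in female somatic, 0.384 in male somatic and 0.201 in male germ cells, with a listed 0 for female germ cells. Krt15, a basal-layer and hair bulge keratin, was at 8.65, 1.08 and 0.393 SPM in the same libraries and also listed at 0 in female germ cells. Both were higher in the female somatic than in the male somatic library, by 35.2-fold (95% interval 17.1 to 103) and 7.99-fold (4.95 to 13.8). Krt14, the basal epidermal keratin, did not share that sex difference. It stood at 7.31 SPM in female and 7.11 SPM in male somatic cells, a ratio of 1.03 (0.813 to 1.31), with 0.713 SPM in male germ cells and a listed 0 in female germ cells. Krt5, its usual partner, reached at most 0.118 SPM, under the floor in every library.

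Krt10, the keratin of differentiating epidermis, was the 1 member at 1 SPM or more that was highest in female germ cells. Its levels were 5.60 SPM there, 1.22 in male germ, 3.70 in female somatic and 2.70 in male somatic cells. Its female over male ratio in germ cells was 4.60 (3.10 to 7.23), while its usual partner Krt1 reached 0.433 SPM at most. Krt79, of hair canal cells, was at 1.01 SPM in female and 0.817 SPM in male somatic cells, with 0.466 SPM in male germ cells and a listed 0 in female germ cells.

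Male germ cells carried a second set of keratins. Of the 22 members at 1 SPM or more in any library, 12 were highest in male germ cells, 9 in female somatic, 1 in female germ and 0 in male somatic cells. For this level no shares of all genes are given, so these counts have no background. Of the 45 members above 0 anywhere, 25 were highest in male germ cells, 14 in female somatic, 3 in female germ and 3 in male somatic cells, against 33.3%, 19.5%, 26.8% and 20.4% of all genes. Krt17, a keratin of skin appendages and wounded epidermis, stood at 19.9 SPM in male germ, 4.72 in female somatic and 1.69 in male somatic cells, with a listed 0 for female germ cells. Krt27, a type I keratin of the inner root sheath, reached 13.6 SPM among male germ cells and 0.175 among female somatic cells, with a listed 0 in both other libraries. The 2 genes differ in the somatic libraries, where Krt17 was above the floor in both sexes and Krt27 in neither. Krt42, a type I keratin next to Krt17 on the chromosome, was at 7.77 SPM in male germ, 0.0195 in female somatic and 0.0984 in male somatic cells, with a listed 0 for female germ cells.

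The 2 strongest members outside the main classes had the same highest library. Krt222, a keratin-like gene, stood at 10.6 SPM in male germ, 2.55 in female germ, 1.14 in female somatic and 1.54 in male somatic cells. Krt23, a type I keratin, was at 9.30, 0.355 and 0.236 SPM in male germ, female germ and male somatic cells, with a listed 0 for female somatic cells. Krt222 was above the floor in all 4 libraries, and its germ and somatic values did not overlap (log2 ratio 1.67 ± 0.86, limma adjusted p = 0.255, and 0.74 to 2.68 with 1 library left out in turn).

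Other members of the set were weaker. Krt12, the keratin of the corneal epithelium, was at 1.95 SPM in male germ and 0.296 in female germ cells and listed at 0 in both somatic libraries. Of the inner root sheath keratins, Krt73 (type II) was at 1.65 SPM in male germ and 0.177 in female germ cells and listed at 0 in both somatic libraries. Krt25 (type I) was at 1.53 SPM in male germ and 0.00973 in female somatic cells and listed at 0 in the others. All 3 were 4-fold or more higher in male than in female germ cells.

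Of the hair shaft keratins, Krt81 was the highest, at 1.86 SPM in male germ, 0.779 in female germ and 0.0591 in male somatic cells and listed at 0 in female somatic cells. Krt83 was at 1.52, 0.789 and 0.204 SPM in male germ, female germ and female somatic cells and listed at 0 in male somatic cells. Krt81 and Krt83 are the shaft members with 1 SPM or more whose signal was above the floor in both germ libraries. Krt84 was at 1.47 SPM in male germ and 0.0591 in male somatic cells and listed at 0 in both female libraries. Krt40 was at 1.04 SPM in male germ cells and listed at 0 in all the others. The Krt81 transcript shares 29.0% of its 100-base stretches with other genes, mostly Krt86, and Krt86 shares 24.6%, so their separate levels are uncertain.

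At the size rule, 11 of 17 keratins were higher in male than in female germ cells, against 18.6% of all genes, and 1, Krt10, was lower, against 9.61%. All 17 reached 1 SPM in male germ cells and 5 did in female germ cells. The rule thus admitted the rest through the male library alone, and the count of higher members is partly set by that. Where the female germ library listed 0, the ratio was taken against 3 fragments of that library (0.179 SPM). Krt17 was then at least 111-fold, Krt27 at least 75.8-fold and Krt42 at least 43.3-fold higher, and the counting intervals of these ratios began at 90.2, 61.3 and 34.9. Krt25, Krt84 and Krt40 were at least 8.51-fold, 8.21-fold and 5.81-fold higher. Krt23 was 26.2-fold higher (95% interval 11.8 to 71.4), Krt73 9.33-fold (2.95 to 46.4, on 3 fragments in the female library), Krt12 6.58-fold (2.63 to 20.9) and Krt222 4.15-fold (2.98 to 5.81). The simple keratins were also higher in male germ cells, by 4.24-fold for Krt19 (2.66 to 7.42), 3.51-fold for Krt18 (2.89 to 4.32) and 1.94-fold for Krt8 (1.12 to 3.76). The interval of Krt7 spanned 1, at 1.36-fold (0.972 to 1.94).

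Within 1 sex, the same rule was applied to germ against somatic cells. These comparisons, chosen after the data were seen, use the same 4 libraries as those above and are not independent of them. In males, 12 of 19 keratins were higher in germ cells, against 16.5% of all genes, and 4, Krt7, Krt8, Krt14 and Krt19, were lower, against 17.9%. The ratio was 11.8 for Krt17 (95% interval 8.11 to 18.0) and 39.4 for Krt23 (14.9 to 143), and at least 75.4 for Krt27. In females, 0 of 12 were higher in germ cells, against 14.3%, and 10 were lower, against 24.8%. All 12 reached 1 SPM in female somatic cells and 5 did in female germ cells. Of the 19 in males, 17 reached it in germ and 9 in somatic cells. Counts in both sexes are thus partly set by the library that admitted the members.

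The signal of the somatic cells' own keratins in the germ libraries can be set beside that of their markers. As a percentage of the somatic library of the same sex, male germ cells had 49.8 of Krt18, 15.7 of Krt7, 14.8 of Krt19 and 9.71 of Krt8. Female germ cells had 3.12 of Krt18, 3.31 of Krt7, 0.417 of Krt19 and 1.03 of Krt8. The somatic marker lists given above ran from 1.17 to 31.0 in male and from 0.677 to 12.7 in female germ cells. The highest male values, for endothelium and pregranulosa cells, came from lists of mixed genes. In male germ and male somatic cells, Pecam1 was at 15.9 and 14.0 SPM and Kdr at 2.79 and 72.8 SPM. Fst was at 14.1 and 7.43 SPM and Wnt4 at 1.65 and 85.6 SPM. Mesonephric duct and tubule markers came to 289 and 19.9, with Ret, the highest of them in germ cells, at 25.6 SPM in male and 10.9 SPM in female germ cells, and Pax8 at 9.06 and 0.444 SPM. Krt20 came to 441 and 2.55, on 0.118 SPM in male somatic cells. Whether carried-over somatic cells gave the germ libraries' simple keratin signal was not tested. Carried-over somatic cells were not tested either as a source of Krt17, Krt23, Krt27, Krt42 and Krt222 signal. The male germ library was the highest for each of these genes, which is why they were grouped above.

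**Figure D3:**
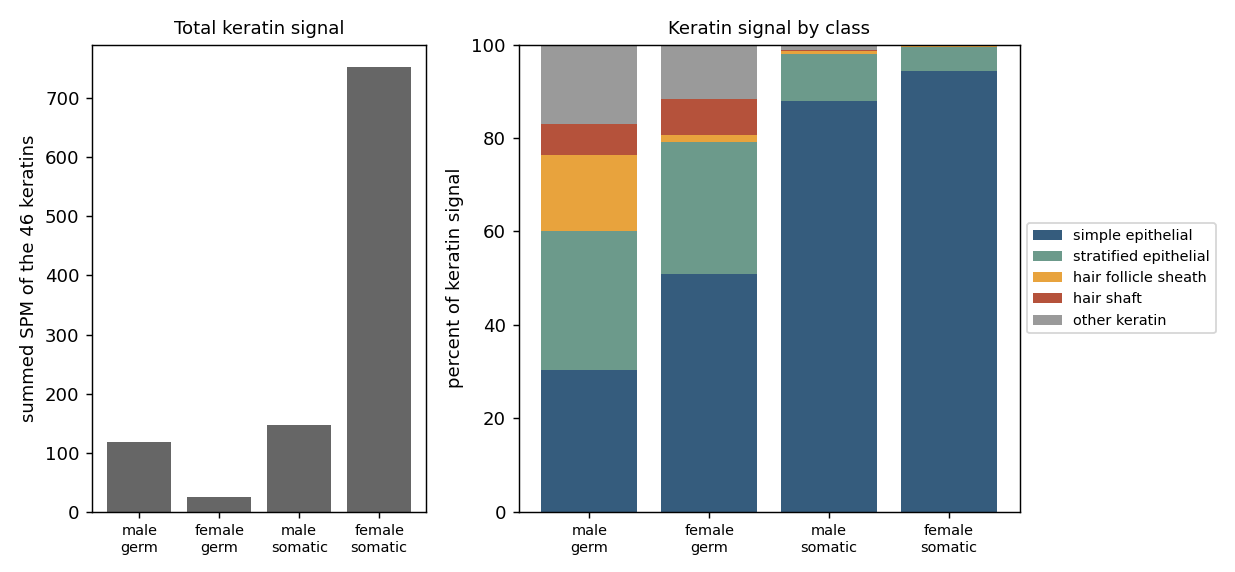
Summed SPM of the 46 keratins in each library (left) and the percentage of it held by each class (right), 1 library per bar. Female somatic cells have 753 SPM, 94.3% of it from simple keratins, and male germ cells have 119 SPM, 30.4% of it from simple keratins.

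More keratins were detected in male germ cells than in the other libraries. Above the floor of 0.18 SPM were 34 of 46 keratins in male germ cells (73.9%, against 82.7% of all genes), 14 in female germ (30.4%, against 73%), 15 in male somatic (32.6%, against 74%) and 20 in female somatic cells (43.5%, against 73.7%). Above it in male germ cells alone were 13 keratins, or 28.3%, against 5.22% of all genes. Female germ cells alone had 1, Krt78 (all genes 0.941%), male somatic cells alone 0 (0.542%), and female somatic cells alone 3, Krt31, Krt32 and Krt77 (0.522%). All 4 libraries shared 7 (all genes 65.2%), and 7 were above the floor in none (13.6%), with Krt2 listed at 0 in every library.

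All genes, too, were above the floor more often in male germ cells than in the other libraries. Among genes not above it in the other 3 libraries, 27.7% of 3819 were above it in male germ cells, and among keratins 13 of 20. This background, and the next, was chosen after the data were seen. At a stricter 1 SPM, among genes under that level in the other 3 libraries and above 0 in any, the share was 21.1% of 3958 genes and 10 of 33 keratins (30.3%). These shares are not on like sets. The first set also holds the 1596 genes listed at 0 in every library, and the second leaves them out. The excess of the keratins was thus not compared between the levels.

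The follicle sheath class was detected mainly in male germ cells. All 7 sheath keratins were above the floor in male germ cells, 0 in female germ, 0 in female somatic and 1 (Krt28, at 0.817 SPM) in male somatic cells. Of the 13 shaft keratins, 7 were above it in male germ, 3 in female germ, 3 in female somatic and 0 in male somatic cells. Of all genes, 82.7% were above it in male germ, 73% in female germ, 73.7% in female somatic and 74% in male somatic cells. Detection of the sheath class in male germ cells was thus near that of all genes, and its detection in the other libraries was far under it. Sheath keratins made up 16.3% of the male germ keratin signal, most of it Krt27, and 1.43%, 0.557% and 0.0323% in female germ, male somatic and female somatic cells. Shaft keratins made up 6.76% and 7.73% in male and female germ cells and 0.201% and 0.184% in male and female somatic cells.

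Values near the floor count little. Krt9 was just above it in male germ cells at 0.183 SPM, and Krt28 and Krt73 in female germ cells and Krt36 in male somatic cells were just under it at 0.177 SPM. In all, 24 members stayed under 1 SPM in every library, 10 of them stratified, 9 shaft, 4 sheath and 1 other. The highest of these 24 was Krt86, at 0.969 SPM in male germ cells. Among the stratified members of that group the highest was Krt76, at 0.823 SPM in male germ cells, and the other-class member was Krt80, at 0.263 SPM in female somatic cells.

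**Figure D4:**
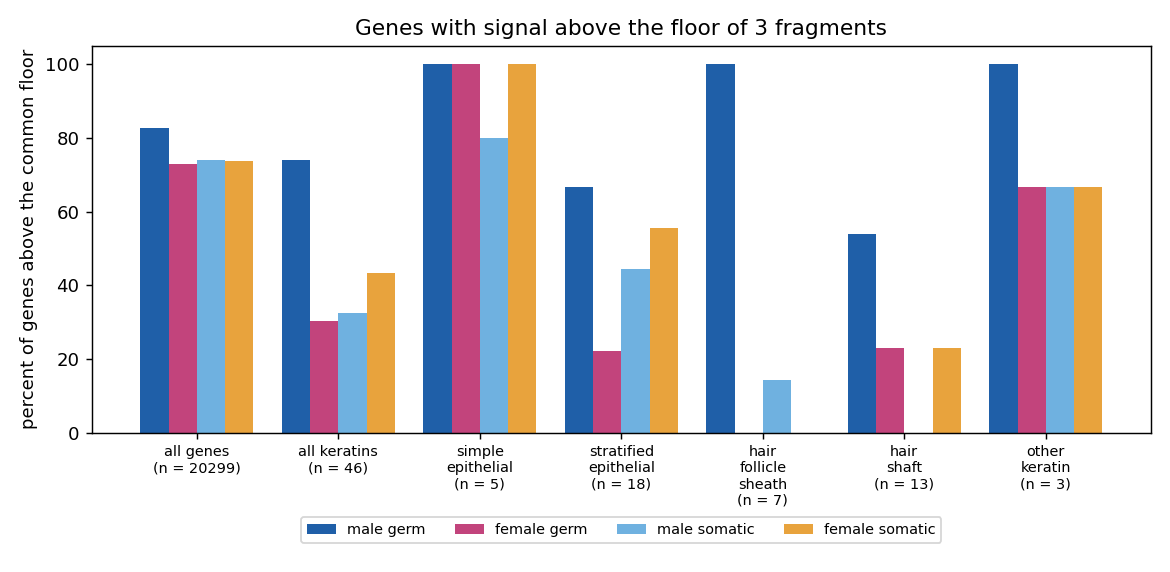
Percentage of genes above the floor of 3 fragments in each library, for all 20299 genes, for all 46 keratins and for each class. All 7 follicle sheath keratins are above the floor in the male germ library, against 0, 1 and 0 in the others.

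The genes lie in 2 clusters, placed here by the mm9 coordinates in the files. Chromosome 11 held 25 type I keratins, all on the minus strand, from 99094411 to 100131185, a span of 1.04 Mb. Chromosome 15 held 21, of which 20 are type II and 1, Krt18, is type I, over 0.682 Mb from 101180001 to 101862457. Krt18 lies next to Krt8, its partner, on the opposite strand. The 2 clusters had sums of 77.5 and 41.4 SPM in male germ and 338 and 415 SPM in female somatic cells.

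Neighbours did not share levels throughout. Krt27, at 13.6 SPM in male germ cells, has Krt26 and Krt28 on either side, at 0.695 and 0.759 SPM. Krt17 and Krt42 are neighbours, at 19.9 and 7.77 SPM in male germ cells, yet Krt17 also had signal in both somatic libraries and Krt42 was under the floor there. Krt222 and Krt23 lie apart, as the 1st and 10th genes of the chromosome 11 cluster. Krt17, Krt23 and Krt42 share no 100-base stretch with another gene, and Krt27 shares 0.758% of its stretches, with Krt25.

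**Figure D5:**
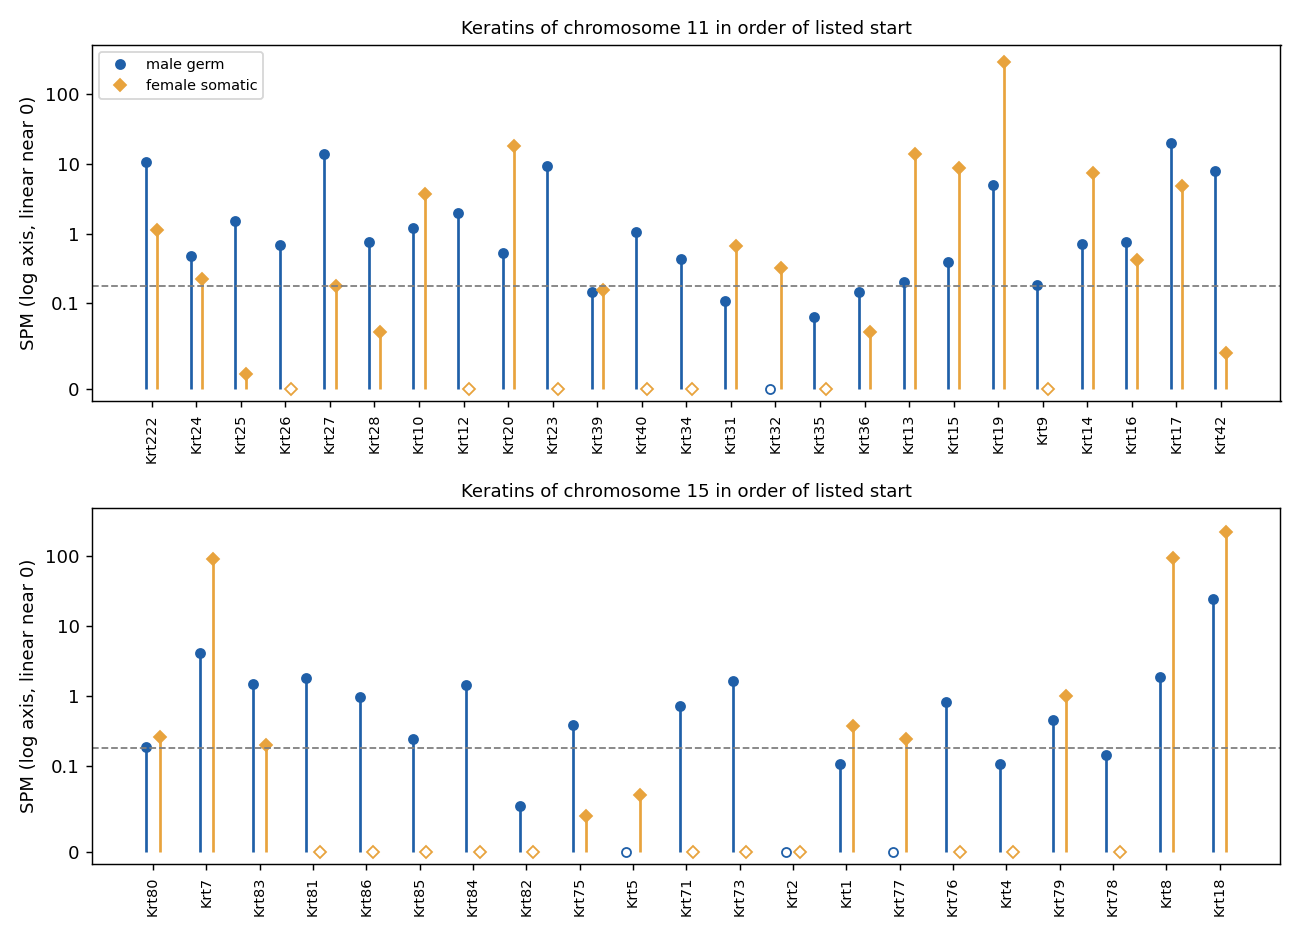
Signal in male germ and female somatic cells for the keratins in order of start on chromosome 11 (25 genes) and chromosome 15 (21 genes), in SPM on a log axis. The axis label says linear near 0, but the axis is log throughout and values listed at 0 are drawn near its foot. The dashed line is the floor of 0.18 SPM and open markers are values listed at 0. Male germ signal is spread over both clusters, and female somatic signal is led by Krt19, Krt18, Krt8 and Krt7.

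Partners of keratins were measured with the same test. Of 18 genes that anchor keratins to desmosomes and hemidesmosomes, 14 were tested and none passed in either direction by limma (median log2 ratio -0.98). Dsp, the desmosomal linker of keratin, was at 16.1 SPM in male germ, 37.7 in female germ, 29.2 in female somatic and 85.0 in male somatic cells (adjusted p = 0.420 by limma). Jup, plakoglobin, was at 11.5, 2.72, 52.0 and 63.2 SPM in the same order (adjusted p = 0.0703 by limma). The germ and somatic ranges overlap for Dsp and do not for Jup. Dst, a large linker of many cell types, had the highest level, 879 SPM in male germ cells.

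Of 16 other intermediate filament genes, 14 were tested, 2 were higher and 2 lower in germ cells, against 2.5% and 5.56% of all genes. Vim, the filament of mesenchymal cells, had germ values of 26.3 (male) and 15.1 SPM (female) and somatic values of 1444 (male) and 1069 SPM (female) (log2 ratio -5.93 ± 0.45, limma adjusted p = 0.0328). Lmnb1, a nuclear lamin, was the other that was lower (adjusted p = 0.0498 by limma). It passed in 2 of 11 alternatives, with sex as a term and without the male germ library, over which adjusted p ran from 0.0022 to 0.324. The 2 that were higher encode neuronal filaments. Nefh had male and female values of 17.0 and 21.9 SPM in germ cells and 0.423 and 0.117 SPM in somatic cells (log2 ratio 4.71, limma adjusted p = 0.0352), and Ina had a log2 ratio of 3.95 (limma adjusted p = 0.0359). Neither passed with a somatic library left out, and neither was tested with a germ library left out, since 1 library then reached 1 SPM.

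A list of epithelial junction genes also held regulators, polarity genes and proteases of epithelia. Of its 22 genes, 20 were tested, 3 were higher in germ cells, against 2.5% of all genes, and 0 lower, against 5.56%, with a median log2 ratio of 1.81. The 3 were Esrp1, Crb3, a polarity protein, and Spint1, a protease inhibitor, and no cadherin, claudin or occludin gene was among them. Crb3 and Spint1 did not pass with either somatic library left out. Esrp1, an epithelial splicing factor, had male and female values of 81.9 and 74.1 SPM in germ cells and 0.502 and 0.584 SPM in somatic cells (log2 ratio 6.23, limma adjusted p = 0.0328). Cdh1, E-cadherin, had germ values of 53.1 and 13.2 SPM and somatic values of 1.96 and 1.62 SPM (adjusted p = 0.0696 by limma). Epcam, a surface adhesion molecule, had germ values of 153 and 95.2 SPM and somatic values of 23.3 and 38.0 SPM (adjusted p = 0.0709 by limma). For both, germ and somatic values do not overlap. The same holds in the opposite direction for Cldn1, a tight junction claudin, at 1.22 SPM in male germ cells, a listed 0 for female germ cells, and 8.92 SPM in female and 38.9 SPM in male somatic cells (adjusted p = 0.0667 by limma).

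Of 16 listed regulators of epidermis and hair, 15 were measured and 7 tested. Of these 7, 1 was higher in germ cells, against 2.5% of all genes, and 0 lower, against 5.56%. Above the floor were 13 of the 15 in male germ cells, against 82.7% of all genes, and 12 in female germ cells, against 73%. In each somatic library 9 were above it, against 74% of all genes in males and 73.7% in females. Klf4 had the highest level, 37.1 SPM in female somatic cells. The 1 that was higher in germ cells was Tfap2c, also a known germ cell factor. Its germ values were 17.8 (male) and 7.77 SPM (female). It was at 0.0984 SPM in male somatic cells and listed at 0 in female somatic cells (limma adjusted p = 0.0371). It did not pass with either somatic library left out and was not tested with a germ library left out. Trp63, the master regulator of layered epithelia, was at 5.22 SPM in male germ and 1.10, 1.08 and 0.739 SPM in female germ, male somatic and female somatic cells (adjusted p = 0.413 by limma). Markers of epidermis summed to 11.1 SPM in both male libraries, 3.91 SPM in female germ and 2.47 SPM in female somatic cells. Of them, Sfn was at 8.61 SPM in male somatic, 3.07 in male germ, 1.02 in female germ and 0.885 in female somatic cells, and Perp was highest in male germ cells at 2.12 SPM. Lor was at 0.0389 SPM at most, and Dsg3 was at 0.192 SPM in male germ cells and listed at 0 in the others. What part epidermal cells had in the hair and skin keratin signal was not tested.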

How the data were processed

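RNA-seq was available for 4 libraries, 1 for each sex and cell type. Per the submitters' processing notes, CASAVA 1.9, TopHat 1.2.0, edgeR and the mm9 build were used; the sources used here do not give the gene counter, annotation or use of strand. The deposited values, headed counts, are treated as scaled, rounded signal per gene. Low values lie on a library-specific spacing above 1 more often than chance, but many do not. Of 20373 rows, 74 repeats were removed. Values were divided by TMM-adjusted totals, per 1000000 (SPM). Germ and somatic cells were compared with limma 3.58.1 (R 4.3.3) on log2(SPM + 0.5) over 14148 genes at 1 SPM or more in 2 libraries, with Benjamini-Hochberg adjustment. Comparisons of single libraries had no test, only ratios of estimated fragments. Intervals and the floor of 3 fragments cover counting error only. The fit was tested on simulated data.

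The members, gene lists and tests were chosen with earlier results of these data known. Members at 1 SPM or more in any library were named with all 4 values, and the others by class and range. Of the pathway and marker lists, the rule named the strongest passing gene in each direction, the highest gene, and Vim, Dsp, Jup, Cdh1 and Epcam; other genes named were chosen after their values were seen. Promoter windows were RefSeq's on GRCm38.p6 and shared stretches were counted in GENCODE M21 transcripts. Alternatives in scaling, pseudocount, filter, sex term and left-out libraries were run.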

Additional observations from a re-analysis of the deposited data

Results flagged for a closer look

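Krt19 moved in opposite directions between the sexes in the 2 cell types. Its male over female ratio was 4.24 in germ cells and 0.120 in somatic cells. With 1 library for each sex and cell type, the difference between those ratios was not tested. Krt19 stood at 4.93 SPM in male germ, 1.16 in female germ, 33.3 in male somatic and 279 SPM in female somatic cells.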

How the results depend on the processing

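With sex as a term, a replicate block that sets germ against somatic cells within each sex, 6 keratins were lower in germ cells, against 0 without it, and no keratin was higher in either fit. The replicate numbers themselves pair nothing, since each group has 1 library. In that fit the counts by list, against the reported ones, were 3 anchors lower (0), 9 junction genes higher (3) and 1 lower (0), and 2 epidermal and hair regulators higher (1). Over all genes, 7.73% were higher and 13.8% lower in that fit, against 2.5% and 5.56% without the term. Leaving out each library in turn gave 0 to 2 keratins lower, 0 to 2 anchors lower, 0 other filaments higher and 1 to 4 lower, 1 to 6 junction genes higher and 0 to 1 lower, and 0 regulators higher; the single library left in an arm is assumed to vary like the rest. With a germ library left out, genes under 1 SPM in both somatic libraries could not meet the filter. Nefh, Ina, Crb3, Esrp1 and Tfap2c were therefore not tested there, which partly sets these counts. The number of all genes that passed also moved with each library left out. Without a filter on low values no gene passed, so other filaments were 0 higher and 0 lower, junction genes 0 higher and regulators 0 higher. Under library totals, upper quartile scaling, a pseudocount of 0.1 or 1 SPM, or a filter of 1 SPM in 1 library, 1 other filament was lower. Of the log2 ratios of tested keratins under alternatives, 79 kept their direction and side of the threshold, 10 came to pass it and 6 changed sign. Those 6 were Krt10 without the male germ (0.73) or female somatic library (0.018), and Krt17 with upper quartile scaling (0.091), a pseudocount of 1 SPM (0.22), or without the female germ (2.68) or female somatic library (0.55). Over the left-out libraries Krt10 ranged from -1.03 to 0.73 and Krt17 from -2.73 to 2.68. Male over female germ cells, 5 keratins were higher at a minimum of 5 SPM (11 reported), and under upper quartile scaling 0 were lower (1 reported). No share of all genes is given for the counts at 5 SPM or for those of detection at 1 SPM. At 1 SPM, 17 keratins were detected in male germ, 5 in female germ, 12 in female somatic and 9 in male somatic cells. The simple keratin share in those libraries was 34.1%, 60.0%, 94.6% and 89.8% with values divided by length, and 12.2%, 31.7%, 90.9% and 81.8% without the highest member of each library. The cause of these changes was not tested. Depth limits members near 0.18 SPM, where a handful of fragments decides detection.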

Other observations

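The 4 keratins with a letter suffix were low in every library. Krt6a, a wound and nail keratin, was at 0.512 SPM in male and 0.660 SPM in female germ cells, and Krt6b was at 0.549 and 0.779 SPM; both were listed at 0 in both somatic libraries. Krt33a, a hair shaft keratin, was at 0.366 SPM in male germ and 0.214 SPM in female somatic cells. Krt33b was at 0.0731 SPM in male germ and 0.217 SPM in female germ cells. Each of the 2 was listed at 0 in the libraries not named for it.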
